A study of Mus musculus with 12 samples.

Results

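Glycosyltransferases are the enzymes of the Golgi that build the sugar chains of secreted and membrane proteins and of glycolipids. The 71 genes described here are the protein-coding genes, among 55487 genes in the deposited count table, whose symbols place them in 9 families. These are Galnt (18 genes), Mgat (11), B3gnt (9), Fut (8), B4galt (7), St3gal (6), St8sia (6), St6galnac (4) and St6gal (2). St6galnac1 and St6galnac2 were left out by the rule that chose the genes. RNA was taken from mammary tumours of C57BL/6J mice of the MMTV-PyMT model, a transgene in which a viral promoter active in mammary epithelium expresses the polyoma middle T antigen, so both groups carried this oncogene. The Bad_WT group was 6 mice with wild-type Bad and end-point ages from 21.286 to 27.143 weeks (median 23.93). The Bad3SA group was 6 mice with an allele in which regulatory serines of the pro-apoptotic protein BAD are replaced, with end-point ages from 22.857 to 31.143 weeks (median 27.93). The labels do not state whether that allele was carried on both chromosomes. Each library came from its own mouse, and the comparison asks how transcripts of these enzymes differ when BAD phosphorylation is blocked.

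Mucin-type O-glycans start when a Galnt enzyme places N-acetylgalactosamine on a serine or threonine, while N-glycans are branched by the Mgat enzymes after trimming in the endoplasmic reticulum and Golgi. Enzymes of the B3gnt and B4galt families then add N-acetylglucosamine and galactose in alternation, which lengthens the chains. Several Fut enzymes and the St families cap them with fucose and sialic acid, while Fut8 adds the core fucose of N-glycans. Selectins, siglecs and galectins are lectins that read these glycans, and altered capping and O-glycan length are well known in breast carcinoma.

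Libraries held 58096172 to 83296370 counts. On the first principal component (29.0% of the variance) Bad_WT 6 lay farthest out, at -100.57, with Bad_WT 5 nearest to it at -40.04. On the second principal component (19.9% of the variance) Bad3SA 4, 5 and 6 were separate from the remaining 9 tumours. The luminal epithelial markers Epcam, Cdh1, Krt8, Krt18, Krt19, Elf5, Cd24a and Cldn4 summed to 5718 to 6879 CPM (counts scaled to library size, normalised between libraries) in Bad_WT and to 5028 to 7390 CPM in Bad3SA, with a median log2 fold change of -0.02. No gene of the 12 cell type marker lists passed the test described below, and none was at 0 in all tumours. All 6 adipocyte markers had a positive log2 fold change (median 1.80), and their sum ran from 2.83 to 86.2 CPM in Bad_WT and from 8.77 to 326.1 CPM in Bad3SA, highest in Bad3SA 5. All 6 skeletal muscle markers had a negative one (median -2.11), with a sum of 1083.5 CPM in Bad_WT 4, 2.32 to 22.0 CPM in the other 5 Bad_WT tumours and 2.45 to 141.5 CPM in Bad3SA, so that the medians of the sums ran the other way (11.7 CPM in Bad_WT, 16.2 CPM in Bad3SA). Median log2 fold changes were also positive for T cells (0.608, 7 of 8 genes positive, sums of 14.5 to 18.9 CPM in Bad_WT and 16.4 to 28.7 CPM in Bad3SA), fibroblasts (0.476, 4 of 6), myoepithelium (0.415, 6 of 7), B and plasma cells (0.355, 4 of 5), macrophages (0.217, 7 of 8) and endothelium (0.124, 5 of 6). They were negative for squamous keratinocytes (-0.826, 2 of 6 positive), neutrophils (-0.26, 2 of 4) and Schwann cells (-0.103, 2 of 6). Lck, the T cell gene with a negative log2 fold change, made up much of that list's sum, with 11.6 of 15.1 CPM in Bad_WT 6. The part of the listed cell types in the results was not tested. In bulk tissue, fewer cells of a type and less RNA per cell cannot be told apart.

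Of the 71 genes, 60 passed the low-count filter and were tested. B3gnt3 fell about 4-fold in Bad3SA and was the only one of the 60 to pass (edgeR quasi-likelihood test, Benjamini-Hochberg adjusted p under 0.05 over all 18019 genes tested). The same call was made for 1.38% of all genes tested, with 0.760% lower and 0.622% higher in Bad3SA, so 1 call among 60 is a share near the background. No member was called higher by edgeR, in which 2 members had a positive log2 fold change at an unadjusted p under 0.05.

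A lower level in Bad3SA was nevertheless the more common direction. The log2 fold change of Bad3SA relative to Bad_WT was negative for 47 of the 60 members (78.3%) and for 49.6% of all genes tested. Its median was -0.26 over the members and 0.00326 over all genes, and the median of the members was -0.149 without Bad3SA 4, 5 and 6. At an unadjusted edgeR p under 0.05 there were 16 members, 14 lower and 2 higher, beside 16.2% of all genes, of which 9.02% were lower and 7.18% higher. For 30 of the 60 members the 95% interval of the fold change, from the t distribution with the fit's 13.3 residual degrees of freedom, lay within 2-fold in either direction. The Fut family had the lowest median among families with at least 2 genes tested, at -0.645, followed by St3gal at -0.399 and B3gnt at -0.383.

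**Figure D1:**
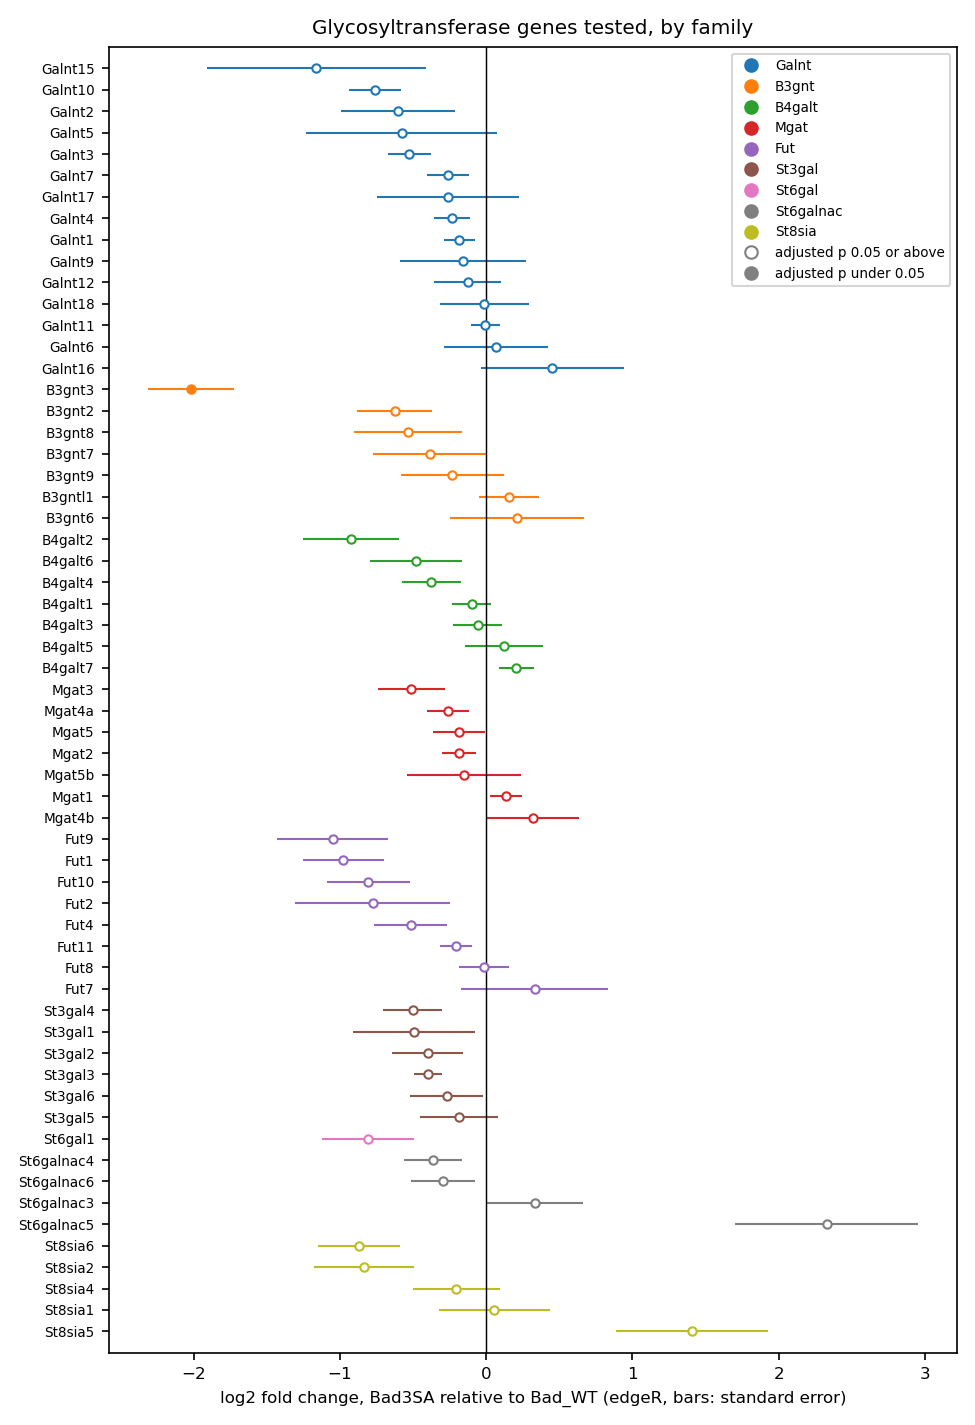
Log2 fold change of Bad3SA relative to Bad_WT for the 60 genes tested (x axis, with the standard error as bars), grouped and coloured by family on the y axis; filled points have an edgeR adjusted p under 0.05. B3gnt3, at -2.02, is the only filled point, and 47 of the 60 points lie left of 0.

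Other tests called more members and more genes. DESeq2 called 4 members lower (B3gnt3, Fut1, Galnt10 and St3gal3) and 1 higher (St6galnac5), beside 2.19% and 2.02% of all genes it tested, or 4.21% in both directions. Limma voom with quality weights called 4 lower (B3gnt3, Galnt3, Galnt10 and St3gal3) and 0 higher, beside 1.93% and 1.28% of all genes, or 3.21%. The authors' deposited table lists the 5 genes named for DESeq2 at an adjusted p under 0.05, with 2.10% of all its genes lower and 1.91% higher, or 4.02%. B3gnt3, the only member that edgeR called, was called by all 4 sources. These rest on the same tumours, and the authors' table is also a DESeq2 result.

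B3gnt3 encodes a beta-1,3-N-acetylglucosaminyltransferase that extends core 1 O-glycans, a step in making the L-selectin ligands of lymph node vessels. The gene (ENSMUSG00000031803) lies on GRCm38 chromosome 8 at 71690756 to 71701789 on the minus strand. No other annotated gene shares exon sequence with it, and no other transcript matched it at 97% identity over at least 200 bases. B3gnt3 was at 63.8, 45.3, 55.9, 67.2, 62.7 and 56.2 CPM in Bad_WT tumours 1 to 6. In Bad3SA tumours 1 to 6 it was at 17.7, 27.7, 15.3, 6.69, 10.9 and 8.33 CPM. Every Bad3SA tumour was below every Bad_WT tumour, and the lowest values were those of Bad3SA 4, 5 and 6. The mean fell from 58.5 ± 7.86 CPM to 14.4 ± 7.69 CPM (SD, 6 tumours each), which is 4.05-fold lower (edgeR log2 fold change -2.02, SE 0.294, adjusted p = 0.0030). Groups that do not overlap were found for 2 members with Bad3SA lower, B3gnt3 and St3gal3, beside 1.27% of all genes tested, and for 0 members with Bad3SA higher, beside 0.960%.

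B3gnt3 also passed when any single tumour was left out, with log2 fold changes from -2.31 to -1.86 and edgeR adjusted p values from 0.00033 to 0.0174. It passed without Bad3SA 4, 5 and 6 as well (-1.52, SE 0.212, edgeR adjusted p = 0.0111). With end-point age in the model the value was -1.93 (SE 0.394) and the call was lost, at an edgeR adjusted p of 0.0679. The median age was higher in Bad3SA, and the slope with age was called for no gene. In the authors' deposited table B3gnt3 stood at 1.77 on the log2 scale for Bad_WT relative to Bad3SA (DESeq2 adjusted p = 3.12e-08).

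**Figure D2:**
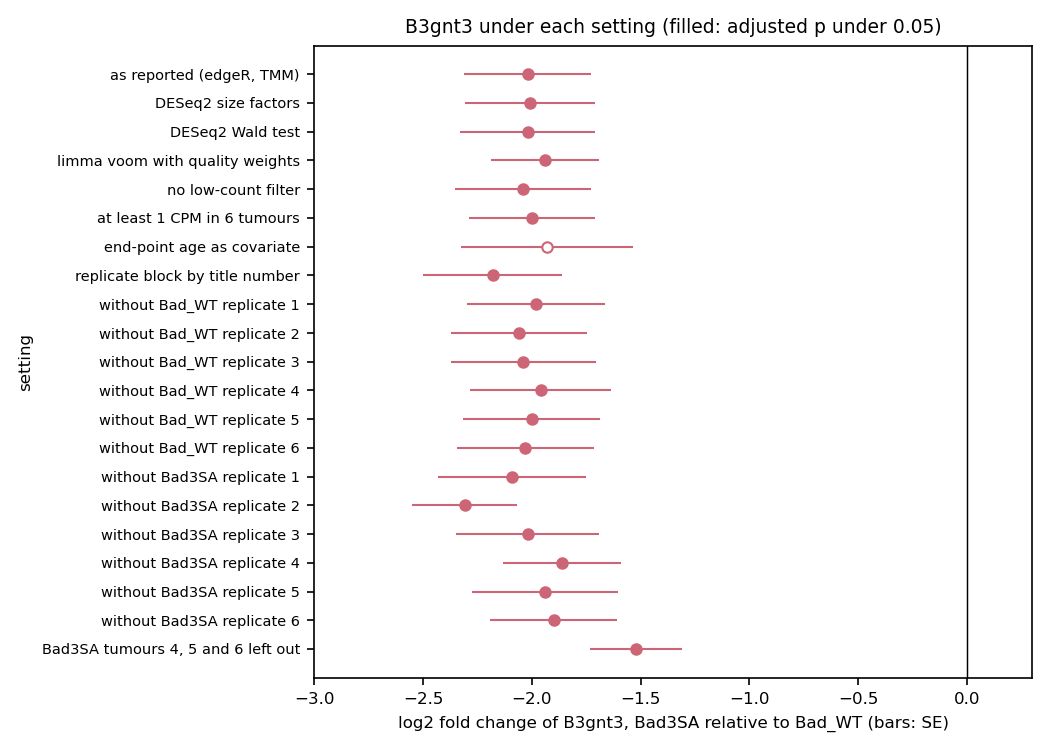
Log2 fold change of B3gnt3 in Bad3SA relative to Bad_WT (x axis, bars are the standard error) under each of 21 settings (y axis); filled points have an adjusted p under 0.05. All 21 estimates lie between -2.31 and -1.52, and the model with end-point age is the only open point.

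B3gnt3 was the most abundant gene of its family per exon length, with a mean level of 19.2 ± 2.57 CPM per kb in Bad_WT against 4.72 ± 2.52 CPM per kb in Bad3SA (SD, 6 tumours each). The next by this measure was B3gntl1, at a mean level of 2.99 CPM per kb over the 12 tumours, and the rest of the family lay between 0 and 1.25 CPM per kb. None of these others passed, with 4 negative and 2 positive log2 fold changes among the 6 tested. B3gnt2, a main poly-N-acetyllactosamine synthase gene, ran from 0.727 to 1.43 CPM in Bad_WT and from 0.408 to 0.878 CPM in Bad3SA, with all Bad3SA tumours below the Bad_WT median (-0.625, SE 0.256, edgeR adjusted p = 0.259). It shares 58.59% of its exon bases with Gm28048 on the same strand, so its place in the family by level depends on how shared reads were assigned. B3gnt8, whose product acts together with that of B3gnt2, stood at -0.53 (SE 0.37), and B3gnt7, a keratan sulfate enzyme gene, at -0.38 (SE 0.39). The core 3 enzyme gene B3gnt6 stood at 0.21 (SE 0.459), with at most 0.257 CPM in any tumour.

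**Figure D3:**
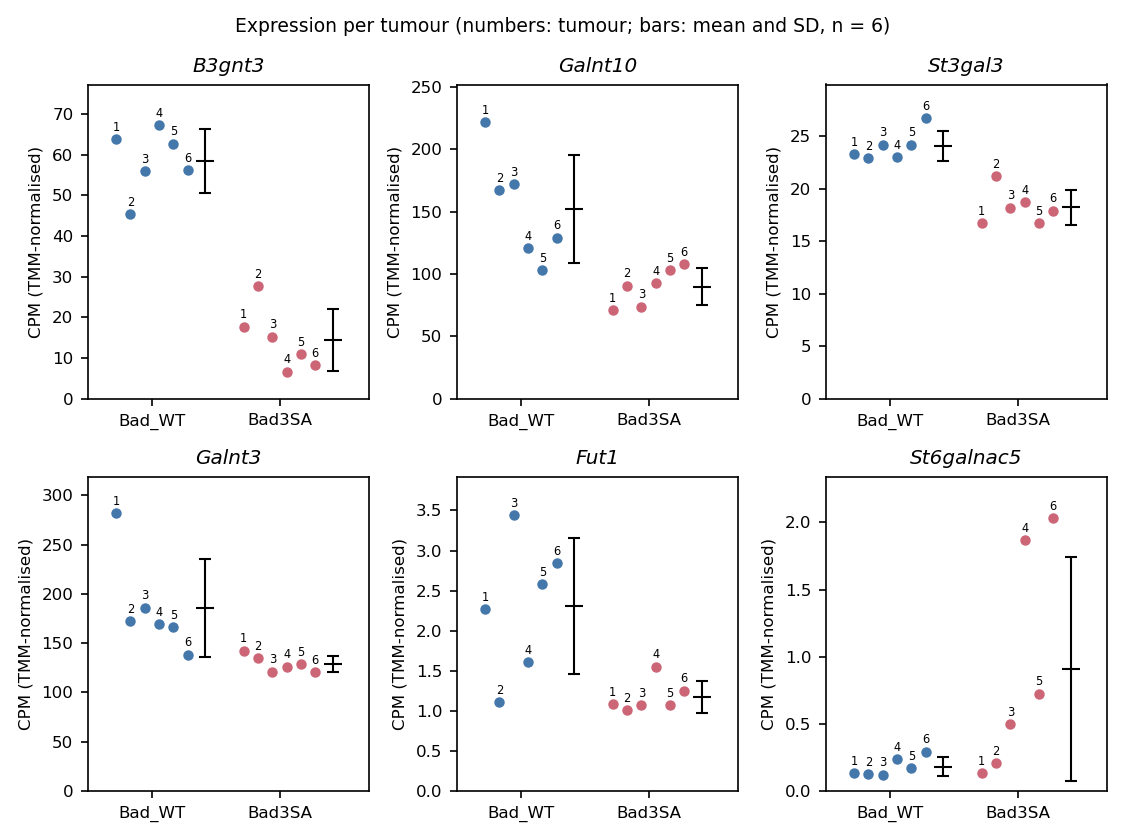
Expression of 6 genes in each tumour in CPM (y axis, starting at 0), with the tumour number beside each point and the mean and SD of 6 tumours at the right of each group. B3gnt3 and St3gal3 do not overlap between genotypes, the other 4 genes do, and St6galnac5 is highest in Bad3SA 4 and 6.

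Galnt genes were tested in 15 of 18 cases, 13 of them with a negative log2 fold change and 2 with a positive one (median -0.234), and none passed. Galnt10, whose product prefers peptides that already carry N-acetylgalactosamine, lies on chromosome 11 at 57645442 to 57787514. Galnt10 was at 221.6, 167.1, 171.9, 120.9, 102.9 and 129.1 CPM in Bad_WT 1 to 6, and at 71.3, 90.7, 74.0, 92.6, 103.0 and 108.1 CPM in Bad3SA 1 to 6. Bad3SA 1, 2, 3 and 4 lay below the Bad_WT range, while Bad3SA 5 and 6 lay within it. By edgeR it did not pass (log2 fold change -0.76, SE 0.18, adjusted p = 0.0607). It passed in limma voom (-0.915, adjusted p = 0.0108), in DESeq2 (-0.77, adjusted p = 0.00873), and in edgeR without the low-count filter (-0.80, adjusted p = 0.0268), without Bad_WT 4 (adjusted p = 0.0435) or without Bad_WT 5 (adjusted p = 0.0395). It did not pass with end-point age (-0.932, edgeR adjusted p = 0.155), without Bad3SA 4, 5 and 6 (-0.94, edgeR adjusted p = 0.121) or without any 1 of the other 10 tumours (edgeR adjusted p from 0.0658 to 0.153). The authors' deposited table gives it a DESeq2 adjusted p of 0.0089.

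Galnt3, known for the O-glycan that protects the hormone FGF23 from cleavage, was the second most abundant member per exon length, at a level of 36.0 ± 10.3 CPM per kb (SD over 12 tumours). In Bad_WT it ran from 138.2 to 281.7 CPM (median 170.8), and in Bad3SA from 120.9 to 142.5 CPM (median 127.2). All Bad3SA tumours but Bad3SA 1 lay below the Bad_WT range. Galnt3 did not pass by edgeR (-0.525, SE 0.146, adjusted p = 0.111) and was called by limma voom (-0.575, adjusted p = 0.0341). Galnt1, a widely expressed initiating enzyme, had a mean of 173.1 ± 18.9 CPM in Bad_WT against 152.6 ± 16.7 CPM in Bad3SA (SD, 6 tumours each), and the difference did not pass (-0.18, SE 0.103, edgeR adjusted p = 0.389). Galnt11 had the narrowest spread of the family, from 26.4 to 35.4 CPM over all 12 tumours, with a 95% interval of its log2 fold change from -0.21 to 0.20.

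Galnt15 and Galnt5 varied most within the family. Galnt15 ran from 4.41 CPM in Bad_WT 6 to 144.3 CPM in Bad_WT 3, and from 7.20 CPM in Bad3SA 1 to 51.6 CPM in Bad3SA 6 (-1.16, SE 0.747, edgeR adjusted p = 0.446). Its value was -0.316 without Bad_WT 3 and -2.24 without Bad3SA 4, 5 and 6. Galnt5 was highest in Bad_WT 1, 2 and 3 (4.47, 3.05 and 3.11 CPM) and in Bad3SA 6 (3.46 CPM), and lay between 0.376 and 1.80 CPM in the other 8 tumours (-0.58, SE 0.653, edgeR adjusted p = 0.666). The value of Galnt5 was -1.56 in limma voom, -1.41 with end-point age and -1.96 without Bad3SA 4, 5 and 6, none of which passed. For both genes the range within each genotype was wider than the difference between the genotype means.

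Several B4galt enzymes add galactose to N-acetylglucosamine. B4galt1, the lactose synthase subunit of the mammary gland, was the most abundant member per exon length at a level of 50.9 ± 7.86 CPM per kb (SD over 12 tumours). B4galt1 ran from 193.4 to 245.5 CPM in Bad_WT and from 149.3 to 276.6 CPM in Bad3SA, with Bad3SA 1 above and Bad3SA 4 and 6 below the Bad_WT range. It stood at -0.10 (SE 0.135, edgeR adjusted p = 0.728), with a 95% interval from -0.39 to 0.19, and was positive with end-point age (0.0527) and without Bad3SA 4, 5 and 6 (0.13). B4galt2 ran from 5.64 to 27.1 CPM in Bad_WT (median 11.1) and from 5.63 to 10.2 CPM in Bad3SA (median 7.17). The highest values of B4galt2 were those of Bad_WT 5 and 6, and it did not pass (-0.92, SE 0.328, edgeR adjusted p = 0.20). It shares 28.17% of its exon bases with Ccdc24 on the same strand.

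B4galt4 ran from 22.1 to 41.2 CPM in Bad_WT and from 17.1 to 37.2 CPM in Bad3SA, with Bad3SA 1, 2 and 3 below the Bad_WT range and Bad3SA 5 far above the other Bad3SA tumours (-0.38, SE 0.202, edgeR adjusted p = 0.373). B4galt6, a lactosylceramide synthase gene, stood at -0.48 (SE 0.313, edgeR adjusted p = 0.452). B4galt7, which acts on the linker of glycosaminoglycan chains, had 6 of 6 Bad3SA tumours higher than the median of Bad_WT and did not pass (0.205, SE 0.12, edgeR adjusted p = 0.408). None of the 7 B4galt genes passed, and 5 had a negative log2 fold change.

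Mgat enzymes set the branches of N-glycans, and the genes of those acting first were the most abundant of the family. Mgat2, which starts the branch that makes a complex N-glycan, had a level of 35.4 ± 5.00 CPM per kb and Mgat1, which opens the hybrid and complex pathway, one of 18.6 ± 2.41 CPM per kb (SD over 12 tumours). Mgat1 ran from 75.0 to 106.4 CPM in Bad_WT and from 77.6 to 103.4 CPM in Bad3SA, so that all Bad3SA tumours were within the Bad_WT range. Mgat2 ran from 86.7 to 112.2 CPM in Bad_WT and from 70.8 to 105.9 CPM in Bad3SA, with Bad3SA 3, 4, 5 and 6 below the Bad_WT range. Neither passed, at log2 fold changes of 0.135 for Mgat1 (edgeR adjusted p = 0.547, 95% interval -0.10 to 0.37) and -0.185 for Mgat2 (edgeR adjusted p = 0.435, interval -0.44 to 0.07). Without Bad3SA 4, 5 and 6 the value of Mgat2 was 0.00905.

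Mgat5, which makes the beta-1,6 branch studied in carcinoma, stood at -0.19 (SE 0.176), and Mgat3, which adds the bisecting residue, at -0.51 (SE 0.231, edgeR adjusted p = 0.30). Mgat4b, an enzyme gene of the beta-1,4 branch, was at 59.8, 65.8 and 59.4 CPM in Bad3SA 1, 2 and 3 and at 30.0, 23.5 and 24.5 CPM in Bad3SA 4, 5 and 6. The first 3 of these lay above the Bad_WT range of 20.0 to 54.6 CPM and the last 3 within it. None of the 7 Mgat genes tested passed, 5 of them with a negative log2 fold change.

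Fucosyltransferase genes were all tested, with 7 of 8 negative and none passing. Fut1, which makes the alpha-1,2-fucosylated H antigen, was at 2.27, 1.11, 3.44, 1.61, 2.58 and 2.84 CPM in Bad_WT 1 to 6 and at 1.08, 1.01, 1.07, 1.55, 1.07 and 1.25 CPM in Bad3SA 1 to 6. All Bad3SA tumours lay below the Bad_WT median, and Bad_WT 2 lay among them. Fut1 did not pass by edgeR (-0.975, SE 0.275, adjusted p = 0.117) but did in DESeq2 (adjusted p = 0.0105) and in the authors' deposited table (DESeq2 adjusted p = 0.0109). Limma voom did not call it (-0.824, adjusted p = 0.135), and with end-point age the value was -0.639 (edgeR adjusted p = 0.773). Fut2, which lies 27532 bases away on chromosome 7 and makes the same linkage in secretory epithelium, was highest in Bad_WT 3 and 4 (6.01 and 4.30 CPM) and in Bad3SA 1 (3.46 CPM), and stood at -0.775 (SE 0.53, edgeR adjusted p = 0.472).

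Fut9, which makes Lewis x, ran from 4.76 to 14.9 CPM in Bad_WT (median 10.3) and from 2.29 to 10.9 CPM in Bad3SA (median 4.0), where Bad3SA 6 alone was above 5.38 CPM. Fut9 stood at -1.05 (SE 0.377, edgeR adjusted p = 0.204), and at -1.67 without Bad3SA 4, 5 and 6. Fut4, another alpha-1,3-fucosyltransferase gene, stood at -0.52 (SE 0.251), and Fut7, which makes selectin ligands in leukocytes, ran from 0.0327 to 0.427 CPM. Fut10 ran from 13.7 to 41.9 CPM in Bad_WT and from 8.67 to 16.6 CPM in Bad3SA, with 4 Bad3SA tumours below the Bad_WT range (-0.805, SE 0.286, edgeR adjusted p = 0.20). Fut8, which adds the core fucose of N-glycans, was the most abundant of the family per exon length at a level of 10.5 ± 2.13 CPM per kb (SD over 12 tumours). By edgeR its log2 fold change was -0.0142 (SE 0.171, adjusted p = 0.971, 95% interval -0.38 to 0.35), which changed sign in 7 of the 20 alternatives. Fut11 followed at a level of 8.41 CPM per kb, with a log2 fold change of -0.205 (SE 0.108).

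**Figure D4:**
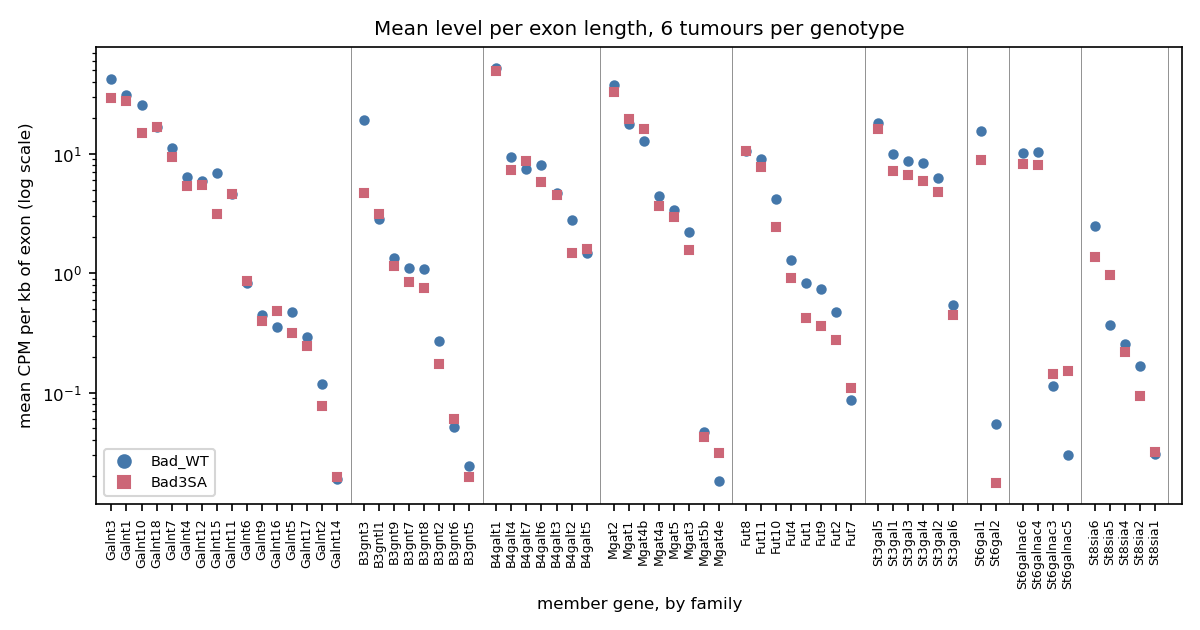
Mean CPM per kb of exon (y axis, log scale) in 6 Bad_WT tumours (circles) and 6 Bad3SA tumours (squares) for the 64 genes at 0.01 CPM per kb or more, ordered by level within each family on the x axis. B4galt1 is highest, and B3gnt3 stands at 19.2 CPM per kb in Bad_WT and 4.72 CPM per kb in Bad3SA.

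St3gal enzymes add sialic acid in alpha-2,3 linkage, and all 6 of their genes had a negative log2 fold change, from -0.502 to -0.186, with none passing. St3gal3, which caps galactose on lactosamine-type chains, lies on chromosome 4 at 117932154 to 118134914. St3gal3 was at 23.3, 22.9, 24.2, 23.0, 24.2 and 26.7 CPM in Bad_WT 1 to 6 and at 16.7, 21.2, 18.2, 18.7, 16.7 and 17.9 CPM in Bad3SA 1 to 6. The groups did not overlap, and Bad3SA 2 was closest to the Bad_WT values. The difference was 1.32-fold and did not pass by edgeR (-0.40, SE 0.0963, adjusted p = 0.0659). It passed without Bad3SA 2 (edgeR adjusted p = 0.0481), in DESeq2 (adjusted p = 0.00193), in limma voom (adjusted p = 0.0334) and in the authors' deposited table (DESeq2 adjusted p = 0.00196). St3gal3 did not pass in the other 17 alternatives. Among them were end-point age (-0.38, edgeR adjusted p = 0.394) and the title number as a replicate block (-0.401, edgeR adjusted p = 0.241). Without Bad3SA 4, 5 and 6 the value was -0.349 (edgeR adjusted p = 0.216). Leaving out any single tumour other than Bad3SA 2 gave edgeR adjusted p values from 0.0841 to 0.154.

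St3gal5, which makes the ganglioside GM3, had the highest level per exon length among the sialyltransferase genes described here. That level was 17.2 ± 6.67 CPM per kb (SD over 12 tumours). St3gal5 reached 86.0 CPM in Bad_WT 1, and 70.8 CPM in tumour 5 of Bad3SA, and lay between 30.8 and 57.5 CPM elsewhere (-0.19, SE 0.269, edgeR adjusted p = 0.743), and without Bad_WT 1 the value was 0.0714. St3gal1, which caps core 1 O-glycans, ran from 17.3 CPM in Bad_WT 6 to 148.6 CPM in Bad_WT 1, with all Bad3SA tumours inside that range (-0.49, SE 0.418, edgeR adjusted p = 0.56). St3gal4 ran from 15.5 to 30.5 CPM in Bad_WT and from 10.2 to 22.3 CPM in Bad3SA, with all Bad3SA tumours below the Bad_WT median (-0.50, SE 0.203, edgeR adjusted p = 0.254).

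St6gal1, which adds alpha-2,6-linked sialic acid to N-glycans, was at 36.0, 41.6, 71.6, 54.2, 97.6 and 159.7 CPM in Bad_WT 1 to 6 and at 52.4, 42.9, 49.3, 30.9, 42 and 45.5 CPM in Bad3SA 1 to 6. Bad_WT 3, 4, 5 and 6 lay above every Bad3SA tumour, while Bad_WT 1 and 2 lay among them. St6gal1 did not pass (-0.81, SE 0.315, edgeR adjusted p = 0.241), and its value was -0.335 with end-point age, -0.342 in limma voom and -0.459 without Bad_WT 6.

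St6galnac enzymes add alpha-2,6-linked sialic acid to O-glycans and gangliosides. St6galnac5, a ganglioside enzyme gene known from breast cancer cells that colonise the brain, was at 0.134, 0.127, 0.122, 0.238, 0.168 and 0.294 CPM in Bad_WT 1 to 6 and at 0.135, 0.207, 0.498, 1.87, 0.726 and 2.03 CPM in Bad3SA 1 to 6. Bad3SA 1 and 2 lay within the Bad_WT range and the other 4 above it. St6galnac5 did not pass by edgeR (2.33, SE 0.626, adjusted p = 0.0979), and its value was 0.642 without Bad3SA 4, 5 and 6 (edgeR adjusted p = 0.640). DESeq2 called it (adjusted p = 0.00527), as did the authors' deposited table (DESeq2 adjusted p = 0.00567), while limma voom did not (1.57, adjusted p = 0.199). St6galnac4 and St6galnac6 lie 11 bases apart on chromosome 2 and had levels of 9.19 and 9.25 CPM per kb. Neither passed, with log2 fold changes of -0.36 (SE 0.20) and -0.30 (SE 0.218).

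St8sia enzymes link sialic acids to each other. St8sia6, which acts on O-glycans, ran from 9.43 to 27.2 CPM in Bad_WT (median 19.1) and from 6.08 to 16.0 CPM in Bad3SA (median 9.37), with Bad3SA 4, 5 and 6 below the Bad_WT range (-0.87, SE 0.282, edgeR adjusted p = 0.170). St8sia5, a ganglioside enzyme gene, ran from 0.655 to 3.38 CPM in Bad_WT, and was at 1.6, 2.68 and 1.81 CPM in Bad3SA 1, 2 and 3 and at 6.65, 7.11 and 11.9 CPM in Bad3SA 4, 5 and 6. The last 3 lay above every Bad_WT tumour and the first 3 within the Bad_WT range. St8sia5 stood at 1.41 (SE 0.519, edgeR adjusted p = 0.215), at 0.0493 without those 3 tumours, at 0.708 with end-point age and at 0.505 in limma voom. The polysialyltransferase genes St8sia2 and St8sia4 stood at -0.84 (SE 0.342, edgeR adjusted p = 0.259) and -0.20 (SE 0.299, edgeR adjusted p = 0.747).

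**Figure D5:**
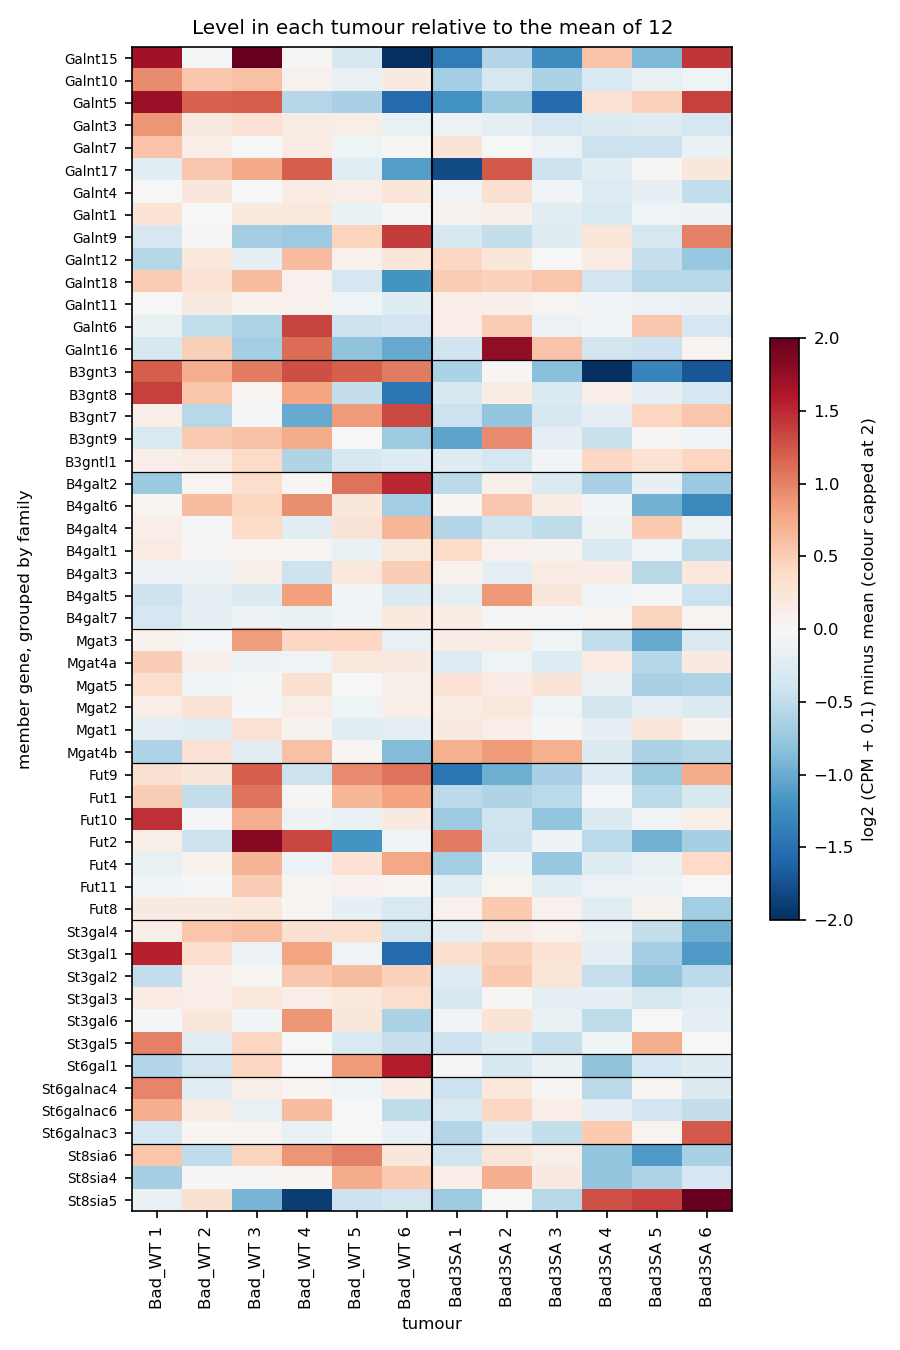
Level of the 52 tested genes with a mean of at least 1 CPM in each of the 12 tumours (x axis), as log2 (CPM + 0.1) minus the mean of the 12 tumours, with the colour capped at 2; lines on the y axis separate the families. B3gnt3 is lowest in Bad3SA 4, 5 and 6, where St8sia5 is highest.

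The remaining 11 genes were removed by edgeR's low-count filter, which asks for a minimum in enough tumours as well as in the total. B3gnt4, Mgat4d and Galnt2l had 0 counts in all 12 tumours, where 3 counts, the limit that a count of 0 allows, correspond to 0.0346 to 0.0544 CPM. Mgat4c, Mgat4e, Mgat4f, St8sia3 and Galnt13 had at most 8 counts in any tumour, B3gnt5 at most 12 and Galnt14 at most 19. St6gal2, the second alpha-2,6-sialyltransferase gene for N-glycans, ran from 0 counts in Bad3SA 2 and 6 to 81 counts in Bad_WT 6. DESeq2, run without that filter, gave an adjusted p to 4 of the 11 and called none, with B3gnt5 at 0.769, Galnt14 at 0.98, Mgat4e at 0.582 and St6gal2 at 0.426.

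Shared exons limit what some of these counts can show. Galnt2 shares 90% of its exon bases with Galnt2l on the same strand and ran from 0.139 to 0.744 CPM. B3gnt2 shares 58.59% with Gm28048 on the same strand, and B3gnt4 shares 93.18% with Diablo on the other strand. More members share exon bases with a gene on the other strand, among them St3gal6 (25.97%), B3gnt8 (18.09%), St3gal4 (14.1%) and B3gnt7 (12.57%). The sources used here do not say how reads in shared stretches, or from opposite strands, were assigned. Ranks by level per exon length rest on the counts as assigned.

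Genes around these enzymes were followed through 8 lists with 78 tested genes. None passed by edgeR, with 40 positive and 20 (25.6%) at an unadjusted p under 0.05, beside 16.2% of all genes tested. DESeq2 called 1, the galectin gene Lgals4, beside 4.21% of all genes it tested, and limma voom called 1, the mannosidase gene Man1a, beside 3.21%. All 8 genes of N-glycan trimming were negative (median -0.219, beside 0.00326 over all genes tested), among them the Golgi mannosidase gene Man1a2, which ran from 145.7 to 177.9 CPM in Bad_WT and from 88.8 to 149.8 CPM in Bad3SA (-0.355, SE 0.125, edgeR adjusted p = 0.196). In sialic acid supply and removal 7 of 11 were positive (median 0.152), and Casd1, which O-acetylates sialic acid, had the smallest p (-0.39, SE 0.134, edgeR adjusted p = 0.190). Fucose supply and removal had 5 of 10 positive (median -0.04), with the GDP-fucose transporter gene Slc35c1 at -0.24 (edgeR adjusted p = 0.248). UDP-sugar supply had 5 of 12 positive (median -0.07), with the transporter gene Slc35a3 at -0.395 (edgeR adjusted p = 0.186). Core and branching genes of O-glycans had 2 of 6 positive (median -0.185), with the branching enzyme gene Gcnt4 at -0.75 (edgeR adjusted p = 0.341).

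Genes for the lectins and carriers of these glycans gave the last 3 lists. Galectin genes were positive in 7 of 8 cases, with a median log2 fold change of 0.396. Lgals9 ran from 107.6 to 248.9 CPM in Bad_WT and from 200.2 to 341.5 CPM in Bad3SA, and the ranges overlapped (0.63, SE 0.193, edgeR adjusted p = 0.148). Siglec genes had 6 of 8 positive (median 0.115), with Siglec15 at 1.27 (SE 0.433, edgeR adjusted p = 0.186). Selectins and mucin-type carriers had 8 of 15 positive (median 0.01), with the sialomucin gene Podxl at -0.61 (SE 0.21, edgeR adjusted p = 0.190) and the mucin gene Muc1 at 0.03 (SE 0.208).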

How the data were processed

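Polyadenylated RNA of 12 tumours was read in pairs of 100 bp (Illumina NovaSeq), as the series' design text states, which also calls the mice matched for end-point age. Raw counts per Ensembl gene were deposited by the authors. Fastp 0.23.1, STAR 2.7.9a, DESeq2 and GRCm38 are named in the submitters' processing notes, and the counting tool, annotation and strand setting are not given there. The authors also deposited their own DESeq2 result, whose columns are, per the file headers, a base mean (a signal of normalised counts), a log2 fold change, a standard error and a Wald score, and a p-value with its adjusted value. Its sign was settled by a Spearman rho of -0.997 with the fold changes fitted here, across genes, so that positive means higher in Bad_WT.

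Low counts were removed with filterByExpr (edgeR 4.0.16), TMM factors were applied, and genotype was tested with the robust quasi-likelihood F test, adjusted by Benjamini-Hochberg over 18019 genes at 0.05. An SE is the size of the log2 fold change over the root of F. CPM per kb divides CPM by the length of the gene's merged exons in GENCODE M21, which held all 71 members. Similar transcripts were sought with BLAST+ 2.17.0. R 4.3.3, limma 3.58.1, DESeq2 1.42.0 and matplotlib 3.10.9 served for the alternatives and plots.

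The members and lists were chosen with earlier results of these data known. The rule for names took genes that passed here or in the authors' deposited result, the 15 smallest p, the 2 highest per length of each family, the 5 most variable on log2 (CPM + 0.1), genes not tested, and the smallest p of each pathway list. Fut2, Fut4, Fut7, Galnt2, Galnt11, Mgat3, Mgat4b, Mgat5, B4galt6, B4galt7, B3gnt6, B3gnt7, B3gnt8, St8sia4, Lgals4, Man1a and Muc1 were named after their values were seen. Alternatives exchanged the size factors for those of DESeq2, the test for DESeq2 or limma voom, and the filter for none or for 1 CPM in 6 tumours, added age or the title number, or left out a tumour. Leaving out Bad3SA 4, 5 and 6 was added after seeing the data. Limits from 3 counts cover counting error only.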

Additional observations from a re-analysis of the deposited data

Results flagged for a closer look

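In 9 cases 1 tumour lay far from the other 5 of its genotype, by a gap to the nearest that exceeded Dixon's 95% critical value as a share of the group's range. The 30 genes named by rule were examined in both genotypes, and chance flags about 1 in 20 groups. Bad_WT 1 was high for Galnt3 (281.7 CPM, next 185.9) and for St6galnac4 (113.1 CPM, next 63.4). Bad_WT 3 was high for Fut11 (50.1 CPM, next 37.5), and Bad_WT 6 for St3gal3 (26.7 CPM, next 24.2). Bad3SA 5 was high for St3gal5 (70.8 CPM, next 43.0), for B4galt4 (37.2 CPM, next 24.1) and for St6gal2, which edgeR did not test (0.472 CPM, next 0.141). Bad3SA 6 was high for Fut9 (10.9 CPM, next 5.38), and Bad3SA 3 was low for B3gnt2 (0.408 CPM, next 0.721).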

How the results depend on the processing

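The count of genes called was 249 and became 998 with DESeq2, 579 with limma voom, 163 with at least 1 CPM in 6 tumours, 73 with end-point age, 105 with the title number as a replicate block, 151 without Bad3SA 4, 5 and 6, and 147 to 315 with 1 tumour left out. Members called lower numbered 1 and became 4 with DESeq2 (B3gnt3, Fut1, Galnt10 and St3gal3), 4 with limma voom (B3gnt3, Galnt3, Galnt10 and St3gal3), 2 without a filter (B3gnt3 and Galnt10), 0 with end-point age, and 1 to 2 with 1 tumour left out (Galnt10 added without Bad_WT 4 or 5, St3gal3 without Bad3SA 2). Members called higher numbered 0, and 1 with DESeq2 (St6galnac5). Pathway genes called numbered 0, and 1 with DESeq2 or with limma voom. The median of the members was -0.26, -0.149 without Bad3SA 4, 5 and 6, and -0.332 to -0.189 with 1 tumour left out. Deviations of same-numbered tumours correlated between -0.271 and 0.283 across genes. Differently numbered tumours were not compared in this way, so whether the title numbers pair the tumours was not settled. The replicate block kept the B3gnt3 call (-2.18, edgeR adjusted p = 0.0286).

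Among the 29 tested members named by rule, the sign turned, without a call, for 5. It turned for B3gntl1 with limma voom (-0.0335) and without Bad3SA 4, 5 and 6 (-0.159). It also turned for B4galt1 with end-point age (0.0527) and without those tumours (0.13), and for Mgat2 without them (0.00905). Fut8 turned to 0.00354 with at least 1 CPM in 6 tumours, to 0.224 without Bad3SA 4, 5 and 6, and ran from -0.139 to 0.0939 with 1 tumour left out, being positive without Bad_WT 1, 2 or 3 or Bad3SA 4 or 6. St3gal5 ran from -0.405 to 0.0714, being positive without Bad_WT 1. Members outside that rule turned as well, among them Mgat5 (0.128) and St8sia4 (0.217) without Bad3SA 4, 5 and 6. The cause of these changes was not tested. With 6 tumours per genotype, the median SE over the members was 0.278 on the log2 scale.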
